A study of Arabidopsis thaliana with 43 samples.

Results

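The second heat exposure of acclimated Arabidopsis thaliana plants was set against their first. The series holds 43 libraries of polyadenylated RNA from seedling leaves of the Col-0 accession, from 22 plates. The comparison used 8 of these libraries from 4 plates, chosen by their time point and sampling temperature labels. T7 leaves were taken on day 16, at hour 9 of the photoperiod, after 90 min of sudden heat at 45 °C in plants that had been acclimated on day 12. T4 leaves were taken on day 12, at hour 7.5, after a slow ramp of 6 h and 90 min at 45 °C, which was the acclimation itself. Unheated leaves of the same series were T6 (day 16, hour 7.5, acclimated 4 days before) and T1 (day 12, dawn, never heated). T10 leaves came from non-acclimated plants given the sudden exposure on day 16, also at hour 9. The leaves of 1 plate of seedlings went into 2 tubes, whose counts were summed. Each time point therefore had 2 plates, 1 in each batch, and values below name batch 1 first and batch 2 second. The protocol text can be read to give T7 another role, and the role used here follows the sampling temperature label. Earlier exposure, heating rate, total time in heat, age and hour all differ between T7 and T4 and cannot be told apart in that comparison. By their labels T7 and T10 share day, hour and kind of heating and differ in earlier acclimation, and they are compared below.

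When a plant cell is heated, heat stress transcription factors (HSFs) bind heat shock elements in promoters and raise chaperone transcripts. Small heat shock proteins hold unfolding proteins, HSP101 pulls aggregated proteins apart, and HSP70 and HSP90 refold them. A mild or gradual exposure lets a plant survive a later harsh one, a state called acquired thermotolerance, and some of its transcripts decay slowly over days of memory. Folding stress in the endoplasmic reticulum (ER) is answered separately, by the unfolded protein response.

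Chaperone transcripts made up much less of the T7 libraries. The small heat shock proteins together with the larger chaperones and their co-chaperones took 7.93% and 3.39% of gene counts in the T7 plates, against 29% and 26.9% in the T4 plates. In unheated leaves the share was 0.711% and 1.2% at T6 and 0.817% and 0.813% at T1, and at T10 it was 6.14% and 3.29%. T7 plates held 23056030 and 23457087 gene counts and T4 plates 13632881 and 15918496. Loci with at least 1 count numbered 22393 and 22142 in the T7 plates and 19420 and 19650 in the T4 plates. Trimmed mean of M values (TMM) scaling gave T7 plates factors of 0.835 and 1.02 and T4 plates 0.361 and 0.448. Levels below are TMM-CPM, the CPM that this scaling gives.

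**Figure D1:**
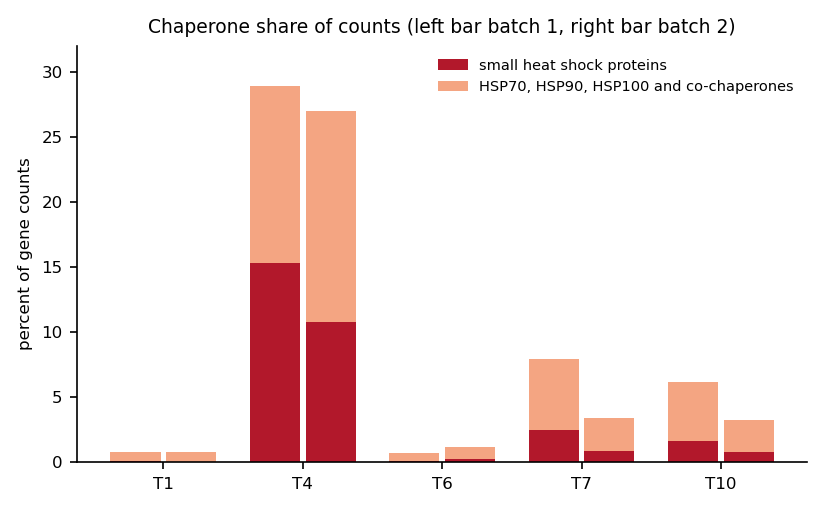
Percent of all gene counts (vertical axis) taken by small heat shock proteins and by larger chaperones (HSP70, HSP90 and HSP100 with their co-chaperones) in each plate of T1, T4, T6, T7 and T10, batch 1 as the left and batch 2 as the right bar. T4 bars reach 29% and 26.9% and T7 bars 7.93% and 3.39%.

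The promoters of a pair of small heat shock protein genes are shown because they hold a motif of the heat shock element and their transcripts are among those with the greatest difference between the exposures. Each line is the 250 bases that end just before the annotated start in RefSeq's TAIR10.1, written 5′ to 3′ along the gene, with capitals marking GAANNTTC, a core of the heat shock element. HSP17.4 (minus strand, chr3:16984868-16985117) codes for a cytosolic class I protein and HSP21 (minus strand, chr4:13819972-13820221) for a chloroplast one.
HSP17.4: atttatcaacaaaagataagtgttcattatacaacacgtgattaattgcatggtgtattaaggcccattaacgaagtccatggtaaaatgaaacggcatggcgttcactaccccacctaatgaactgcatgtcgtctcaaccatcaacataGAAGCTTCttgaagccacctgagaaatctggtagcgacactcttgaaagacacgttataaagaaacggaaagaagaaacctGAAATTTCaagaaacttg
HSP21: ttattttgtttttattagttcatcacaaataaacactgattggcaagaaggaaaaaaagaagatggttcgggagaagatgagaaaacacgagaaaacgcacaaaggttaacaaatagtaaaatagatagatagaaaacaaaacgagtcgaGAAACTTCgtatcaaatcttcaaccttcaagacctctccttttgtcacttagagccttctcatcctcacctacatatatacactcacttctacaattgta
The motif, which reads the same on both strands, begins 99 and 18 bases before the start of HSP17.4 and 100 bases before that of HSP21. It occurred in 2621 of 27443 promoter windows of protein-coding genes (9.55%), and in 3 of the 12 genes with the largest decrease (25%). Of the small heat shock protein lists 1 of 4 cytosolic (25%) and 1 of 3 organelle genes (33.3%) held it, the pair shown, and HSP18.2, HSP17.6II, HSP17.6A, ATHSP22.0 and HSP23.6-MITO had no match in this window. Of the 33 larger chaperone genes, 2 held it (6.06%). A match is a description of these letters only.

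In edgeR's quasi-likelihood test 3545 of 20980 tested loci were higher in T7 than in T4 (16.9%) and 2660 were lower (12.7%), at a Benjamini-Hochberg adjusted p under 0.05. Both T7 plates lay above both T4 plates for 7149 loci (34.1%) and below them for 5001 (23.8%). Many genes named below were picked by a small p or a large change, so such a separation of their plates is no added evidence. Scaling by total counts alone gave 11859 higher and 486 lower loci. It put the median log2 change over all genes at 1.37, against 0.19 with TMM, which is a shift of 1.19. List medians are therefore given after subtracting the median of all tested genes under the same scaling. Each list's counts can be read against the 16.9% and 12.7% over all genes. Leaving out 1 plate gave 1982 to 2543 higher and 1496 to 1841 lower loci. In bulk RNA, fewer cells of a type and less RNA per cell cannot be told apart.

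Small heat shock proteins, which bind unfolding proteins without using ATP, stood far lower in T7 than in T4. The 4 cytosolic members summed to 7610 and 2090 TMM-CPM in T7 and 127000 and 84000 in T4. At T10, a first exposure that was sudden, they summed to 4840 and 1820. HSP21 (AT4G27670, chr4:13818825-13819971, minus strand), which protects chloroplasts and is known as a heat memory gene, had 671 and 181 TMM-CPM in the T7 plates, against 23100 and 9660 TMM-CPM in the T4 plates (log2 change -5.34 ± 1.18, adjusted p = 0.00412). Cytosolic HSP17.4 (AT3G46230) had 1571 and 510 TMM-CPM in the T7 plates, against 48010 and 37430 TMM-CPM in the T4 plates (log2 change -5.34 ± 1.37, adjusted p = 0.00968). For HSP18.2 (AT5G59720, chr5:24062323-24063300, plus strand), another cytosolic class I member, the values were 735 and 352 TMM-CPM in the T7 plates, against 30220 and 11390 TMM-CPM in the T4 plates (log2 change -5.24 ± 1.11, adjusted p = 0.00319). The plates of the groups did not overlap for any of these genes. The ER member ATHSP22.0 (AT4G10250) had 2398 and 637 TMM-CPM in the T7 plates, against 24700 and 12190 TMM-CPM in the T4 plates (log2 change -3.70 ± 1.12, adjusted p = 0.0234). Mitochondrial HSP23.6-MITO (AT4G25200) had 2296 and 567 TMM-CPM in the T7 plates, against 41850 and 22340 TMM-CPM in the T4 plates, a difference that missed the threshold (log2 change -4.56 ± 1.67, adjusted p = 0.0518) and passed with DESeq2 (adjusted p = 0.00927). Class II HSP17.6II had 1833 and 387 TMM-CPM in the T7 plates, against 23710 and 19180 TMM-CPM in the T4 plates (log2 change -4.35 ± 1.49, adjusted p = 0.0393). Its class II relative HSP17.6A did not pass, at 3474 and 841 TMM-CPM in the T7 plates, against 25550 and 15990 TMM-CPM in the T4 plates (adjusted p = 0.0643, and 0.0228 with DESeq2). In all 7 cytosolic and organelle members both T7 plates lay below both T4 plates, as they did in 23.8% of all tested loci.

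Counted over the lists, 3 of 4 cytosolic members were lower and none higher, with a median of -4.98 relative to all genes (-4.46 within batch 1 and -5.50 within batch 2). Of the 3 organelle members 2 were lower and none higher, with a median of -4.74, and 1 was lower with any 1 plate left out. A wider set, 29 tested loci whose product name gives an HSP20-like chaperone, had 9 lower and 1 higher members and a median of -1.42, or -0.69 within batch 1, with 1 to 5 lower when any 1 plate was left out. By library size alone this turned to 6 lower and 8 higher. In it the class I genes AT1G53540 (-5.09 ± 1.27), AT2G29500 (-4.47 ± 1.23) and AT1G07400 (-4.41 ± 1.48) were lower, as were AT2G19310 (-2.81 ± 0.70) and BOB1 (-2.77 ± 0.51), a developmental HSP20-like protein. Parentheses hold the log2 change and its standard error. Reads with several alignments are in no gene's count, so the levels of near-identical copies are uncertain. Of the cytosolic members 2 passed with any other plate left out. Without the T7 plate of batch 2 only HSP18.2 of the 4 passed, and the calls were lost for HSP17.4 (-4.63), AT1G53540 (-4.52), AT2G29500 (-3.72) and AT2G19310 (-2.25). Without the T4 plate of batch 1, AT2G29500 (-3.74) and AT2G19310 (-2.32) missed it. Calls of HSP17.6II (-5.76 to -3.57), ATHSP22.0 (-4.51 to -3.15) and AT1G07400 (-5.84 to -3.65) were lost whichever plate was left out, while HSP21 and HSP18.2 passed each time.

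The T7 plates themselves differed. In all 4 cytosolic small heat shock proteins the plate of batch 1 was the higher one, with a median ratio of 3.61 to batch 2, against 1.44 between the T4 plates. Of the HSP70, HSP90 and HSP100 list 30 of 33 members were higher in the T7 plate of batch 1 (median ratio 2.09), and the T4 plates had a median ratio of 1.02.

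**Figure D2:**
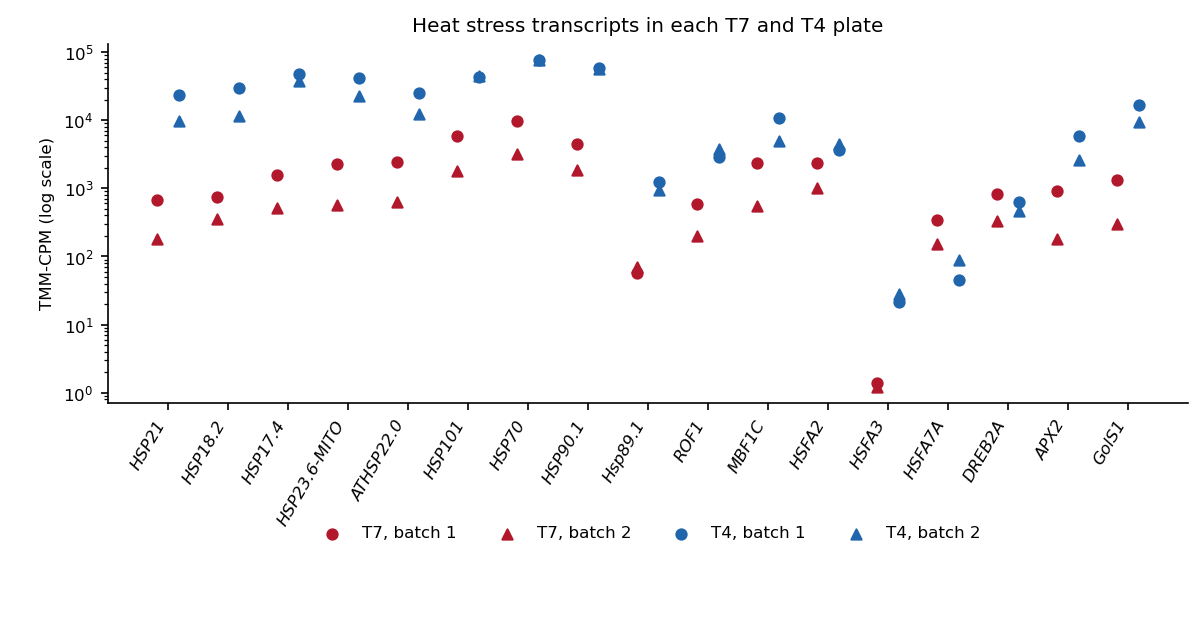
TMM-CPM on a log scale of 17 heat stress transcripts in each plate, T7 to the left of T4, with batch 1 and batch 2 marked separately. HSP21 lies at 671 and 181 in T7 and 23100 and 9660 in T4, while DREB2A lies at 814 and 331 in T7 and 621 and 472 in T4.

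Among the larger chaperones the HSP100 disaggregase HSP101 (AT1G74310, chr1:27936508-27940369, minus strand), needed for acquired thermotolerance, had 5961 and 1811 TMM-CPM in the T7 plates, against 42520 and 44210 TMM-CPM in the T4 plates. This difference missed the threshold narrowly (log2 change -3.44 ± 1.25, adjusted p = 0.0506), although the plates did not overlap, and it passed with DESeq2 (-3.49, adjusted p = 0.0124). Cytosolic HSP70 (AT3G12580), a refolding ATPase, had 9697 and 3204 TMM-CPM in the T7 plates, against 75470 and 75300 TMM-CPM in the T4 plates (log2 change -3.53 ± 1.12, adjusted p = 0.0289). Heat-inducible cytosolic HSP90.1 (AT5G52640) had 4519 and 1842 TMM-CPM in the T7 plates, against 58980 and 55800 TMM-CPM in the T4 plates (log2 change -4.13 ± 1.28, adjusted p = 0.0256). Neither of these 2 calls survived leaving out any of the 4 plates, with log2 changes of -4.68 to -2.84 for HSP70 and -5.17 to -3.49 for HSP90.1. The calls of 3 organelle relatives held with each plate left out. Hsp89.1, the mitochondrial HSP90, had 56.5 and 71.1 TMM-CPM in the T7 plates, against 1246 and 931.7 TMM-CPM in the T4 plates (log2 change -4.09 ± 0.42, adjusted p = 2.02e-05). SHD, the ER HSP90, had 306 and 276 TMM-CPM in the T7 plates, against 1508 and 1932 TMM-CPM in the T4 plates (log2 change -2.55 ± 0.29, adjusted p = 4.63e-05). The chloroplast HSP70 cpHsc70-2 had 313 and 280 TMM-CPM in the T7 plates, against 1394 and 1519 TMM-CPM in the T4 plates (log2 change -2.29 ± 0.31, adjusted p = 0.000134). In each of these 3 genes, named for their small p, both T7 plates lay below both T4 plates. The co-chaperones Hop2 (-2.22 ± 0.30), which links HSP70 to HSP90, and ROF1 (-3.08 ± 0.61), an immunophilin that binds HSP90, were lower as well.

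Of 33 tested members of this list 22 were lower and none higher, with a median of -2.73 relative to all genes (-2.30 and -3.29 by batch). Both T7 plates were below both T4 plates in 30 of them, beside 23.8% of all tested loci. Without the T7 plate of batch 2 the count was 12, without the T4 plate of batch 2 it was 15, and by library size alone 18 were lower and 1 higher.

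Of 18 tested heat stress transcription factors 4 were higher (22.2%) and 3 lower (16.7%), shares near the 16.9% and 12.7% of all genes. HSFA2 (AT2G26150, chr2:11135624-11137792, plus strand), the strongly heat-induced factor that sustains the response, had 2322 and 1012 TMM-CPM in the T7 plates, against 3708 and 4447 TMM-CPM in the T4 plates and did not pass (log2 change -1.2 ± 1.25, adjusted p = 0.49). HSFA3, which DREB2A activates, was lower, at 1.4 and 1.22 TMM-CPM in the T7 plates, against 21.5 and 27.9 TMM-CPM in the T4 plates (log2 change -4.24 ± 0.89, adjusted p = 0.00294). HSFA7A was higher, at 342 and 154 TMM-CPM in the T7 plates, against 45.9 and 87.4 TMM-CPM in the T4 plates (log2 change 1.95 ± 0.65, adjusted p = 0.0343). That call was lost without the T7 plate of batch 1 (1.09), the T4 plate of batch 1 (1.57) or that of batch 2 (2.42). HSFB4 was lower, at 4.57 and 3.4 TMM-CPM in the T7 plates, against 13.6 and 11.1 TMM-CPM in the T4 plates (log2 change -1.63 ± 0.29, adjusted p = 0.001), which missed the threshold by library size alone (-0.44). HSFA8 was higher, with 284 counts in the T7 plates and 1 in the T4 plates, a ratio of 79.5-fold with a 95% counting interval of 14.2 to 3151 that leaves out the spread between plates. HSFA6B passed as higher with 1.45 and 0.084 TMM-CPM in T7 and no counts in T4, but not without the T7 plate of batch 1 or either T4 plate, nor with DESeq2 (adjusted p = 0.0712). The list's median was 0.12 relative to all genes, and by library size alone 10 were higher and 1 lower. Without the T7 plate of batch 1 or either T4 plate 1 HSF was higher.

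Other regulators gave 3 lower of 11 and none higher (median -1.46, and -1.13 within batch 1), against 1 lower and 2 higher by library size. BZIP28, an ER membrane factor freed by folding stress, had 37.7 and 23.64 TMM-CPM in the T7 plates, against 158 and 228 TMM-CPM in the T4 plates (log2 change -2.62 ± 0.35, adjusted p = 0.000147). MBF1A, a coactivator, was lower too (-1.49 ± 0.25, and -0.29 with no call by library size). Its heat-induced relative MBF1C (AT3G24500) had 2385 and 546 TMM-CPM in the T7 plates, against 10780 and 5037 TMM-CPM in the T4 plates and did not pass (adjusted p = 0.0791, and 0.0446 with DESeq2). DREB2A, a factor of heat and drought, had 814 and 331 TMM-CPM in the T7 plates, against 621 and 472 TMM-CPM in the T4 plates, overlapping groups with a log2 change of 0.07 ± 0.69 (adjusted p = 0.955). Heat memory genes, several of them counted above, had 9 of 17 members lower and none higher (median -3.48), and 5 or 6 lower when any 1 plate was left out.

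Many transcripts of ER folding were lower in T7. The protein disulfide isomerases PDIL2-3 (AT2G32920, chr2:13962213-13965531, minus strand) and PDIL2-2 form and shuffle disulfide bonds. PDIL2-3 had 32.4 and 29.4 TMM-CPM in the T7 plates, against 254 and 270 TMM-CPM in the T4 plates (log2 change -3.08 ± 0.25, adjusted p = 9.12e-06). PDIL2-2 had 11.4 and 6.72 TMM-CPM in the T7 plates, against 163 and 151 TMM-CPM in the T4 plates (log2 change -4.12 ± 0.44, adjusted p = 2.87e-05). The lectin chaperone calreticulin CRT1a had 56.4 and 79.4 TMM-CPM in the T7 plates, against 333 and 514 TMM-CPM in the T4 plates (log2 change -2.63 ± 0.29, adjusted p = 3.52e-05). In none of these genes did the groups overlap. The J-domain protein ATERDJ3B was lower by a smaller step (-2.30 ± 0.23). The ER HSP70 BIP1 had 803 and 409 TMM-CPM in the T7 plates, against 2888 and 3986 TMM-CPM in the T4 plates (log2 change -2.48 ± 0.48, adjusted p = 0.00183). Of 26 tested members 16 were lower and none higher, with a median of -1.45 (-1.08 and -1.68 by batch), and by library size alone 10 were lower and 6 higher.

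Other parts of the protein and RNA machinery differed in some of their members. SR proteins guide splicing, and 10 of 20 were lower and 1 higher (median -0.99, and 3 lower and 6 higher by library size). SR30 (AT1G09140, chr1:2942538-2945976, minus strand) had 95.8 and 64.4 TMM-CPM in the T7 plates, against 1135 and 781 TMM-CPM in the T4 plates (log2 change -3.58 ± 0.38, adjusted p = 2.26e-05). SCL33 (-2.56 ± 0.37) and SC35 (-1.67 ± 0.24) were lower as well, SC35 without a call by library size (-0.49), whereas SR45a had 2000 and 675 TMM-CPM in the T7 plates, against 4158 and 3371 TMM-CPM in the T4 plates and missed the threshold (adjusted p = 0.051, and 0.0125 with DESeq2). AtCDC48B, an ATPase that unfolds ubiquitinated proteins, was lower, at 100 and 26.49 TMM-CPM in the T7 plates, against 1066 and 1391 TMM-CPM in the T4 plates (log2 change -4.38 ± 0.98, adjusted p = 0.00433), with the call lost without the T7 plate of batch 2 (-3.68). Of 38 tested proteasome genes 8 were lower and none higher (median -0.46), but by library size alone 28 were higher and none lower, and 3 or 4 were lower with any 1 plate left out. PBC2, a core particle subunit, was lower (-1.52 ± 0.27), as was AT1G04810, a regulatory particle subunit (-1.69 ± 0.26), and both missed the threshold by library size (-0.33 and -0.50). Autophagy genes had 8 of 21 lower and 1 higher (median -0.84), against 2 lower and 7 higher by library size and 3 to 6 lower with any 1 plate left out. ATG8H (-1.92 ± 0.24) and APG8A (-2.04 ± 0.40), ubiquitin-like proteins of the autophagosome, were lower, and the receptor NBR1 had 231 and 204 TMM-CPM in the T7 plates, against 184 and 198 TMM-CPM in the T4 plates (adjusted p = 0.583). Of 293 ribosomal protein genes 34 were lower (11.6%) and 16 higher (5.46%), below the 12.7% and 16.9% of all genes. Their median was -0.49, and by library size 3 were lower and 179 higher.

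Enzymes that remove reactive oxygen gave 5 lower and 2 higher of 24 (median -0.86), with 1 lower and 10 higher by library size and 1 to 4 lower with any 1 plate left out. Cytosolic APX1, an ascorbate peroxidase, had 353 and 459 TMM-CPM in the T7 plates, against 1864 and 2150 TMM-CPM in the T4 plates (log2 change -2.33 ± 0.52, adjusted p = 0.00421), a call lost without the T4 plate of batch 1 (-1.83). Its heat-induced relative APX2 (AT3G09640) had 912 and 182 TMM-CPM in the T7 plates, against 5877 and 2567 TMM-CPM in the T4 plates and did not pass (log2 change -3.18 ± 1.22, adjusted p = 0.0624), but did with DESeq2 (adjusted p = 0.0368). CSD3, a copper/zinc superoxide dismutase, was lower (-1.53 ± 0.26) except by library size (-0.32), and the glutathione peroxidase GPX6 was higher, at 282 and 208 TMM-CPM in the T7 plates, against 55.4 and 55.8 TMM-CPM in the T4 plates (log2 change 2.13 ± 0.36, adjusted p = 0.000663). Galactinol synthases make a sugar that protects membranes, and they split. GolS1, a heat-induced member, was lower, at 1332 and 304 TMM-CPM in the T7 plates, against 16520 and 9305 TMM-CPM in the T4 plates (log2 change -4.07 ± 1.38, adjusted p = 0.038), a call lost with any plate left out (-5.26 to -3.37). GolS3, known as the cold-induced member, was higher, at 6.91 and 43.8 TMM-CPM in the T7 plates, against 0.406 and 0.421 TMM-CPM in the T4 plates (log2 change 5.74 ± 1.12, adjusted p = 0.00179). Of 11 genes of galactinol, raffinose and myo-inositol synthesis 2 were higher and 2 lower (median 0.33, with 1.48 and -0.06 by batch), with 6 higher and none lower by library size and 1 lower with any 1 plate left out. MIPS3 was lower (-1.35 ± 0.26, with no call by library size at -0.16) and MIPS1, which starts inositol synthesis, had 1019 and 569 TMM-CPM in the T7 plates, against 1057 and 527 TMM-CPM in the T4 plates (adjusted p = 0.982).

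Nuclear photosystem and antenna transcripts depended strongly on the processing. By TMM 26 of 39 were lower and none higher (median -1.90), but leaving out the T7 plate of batch 1, the T7 plate of batch 2 or the T4 plate of batch 1 left 2, 3 and 1 lower. By library size alone 1 was lower and 1 higher, and in the authors' deposited normalized table none passed and the list median was 0.12. PSBQA, an oxygen-evolving complex subunit, had 874 and 1031 TMM-CPM in the T7 plates, against 5477 and 3903 TMM-CPM in the T4 plates (log2 change -2.34 ± 0.50, adjusted p = 0.00324). PSAF, of photosystem I, had 617 and 2313 TMM-CPM in the T7 plates, against 6502 and 7754 TMM-CPM in the T4 plates (log2 change -2.65 ± 0.68, adjusted p = 0.01), with the call lost without the T7 plate of batch 1 (-2.35) or the T4 plate of batch 1 (-1.94). The antenna gene CAB1 had 13890 and 19570 TMM-CPM in the T7 plates, against 56580 and 42140 TMM-CPM in the T4 plates and did not pass (adjusted p = 0.104), and its near-identical copies make its value uncertain. Of 18 Rubisco and Calvin cycle genes 4 were lower and none higher (median -1.06, and 0.36 in the authors' deposited table). This became 2 lower and 3 higher by library size, and 1 lower without the T7 plate of batch 2. Rubisco activase RCA had 10270 and 6927 TMM-CPM in the T7 plates, against 58240 and 45030 TMM-CPM in the T4 plates (log2 change -2.59 ± 0.63, adjusted p = 0.00714), a call lost without the T7 plate of batch 2 (-2.36). RBCS3B, a Rubisco small subunit, was lower (-2.62 ± 0.52), whereas RBCS1A had 19360 and 17060 TMM-CPM in the T7 plates, against 42600 and 32490 TMM-CPM in the T4 plates and did not pass (adjusted p = 0.168). In the authors' deposited table RBCS1A was higher in T7 (1.74, adjusted p = 0.0138 in limma), and with DESeq2 on the counts it was lower (-1.11, adjusted p = 0.00988), as was CAB1 (-1.68, adjusted p = 0.0135). At T4 against T1, which shares the T4 plates, 36 of the 39 photosystem genes were higher (9 by library size), beside 18.8% of all genes, and at T7 against T6 none passed in either direction. None of 8 early light-induced and related proteins passed.

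Anthocyanin synthesis held 6 of the 12 largest increases in T7. Of 24 tested genes of the anthocyanin and flavonol pathway 15 were higher and 1 lower, and the median was 3.51 relative to all genes, or 2.88 with members at 0 in a group set at their bound. By batch it was 4.28 and 2.21. The count was 13 to 15 with any 1 plate left out. DFR (AT5G42800, chr5:17164093-17166032, minus strand), the first enzyme specific to anthocyanins and tannins, had 670 and 193 TMM-CPM in the T7 plates, against 0.812 and 0.701 TMM-CPM in the T4 plates (log2 change 8.91 ± 1.29, adjusted p = 0.000224). LDOX, the next enzyme, had 399 and 101 TMM-CPM in the T7 plates, against 1.22 and 0.281 TMM-CPM in the T4 plates (log2 change 8.32 ± 1.12, adjusted p = 0.00014). GSTF12, needed to bring anthocyanins into the vacuole, had 545 and 95.3 TMM-CPM in the T7 plates, against 0.812 and 0.982 TMM-CPM in the T4 plates (log2 change 7.98 ± 1.16, adjusted p = 0.000229). In these late-pathway genes T4 leaves held at most 1.22 TMM-CPM, and the T7 plate of batch 1 lay above that of batch 2. The glucosyltransferase UF3GT (AT5G54060, chr5:21936746-21938396, minus strand) had 11556 counts in T7 and 3 in T4, a ratio of 1078-fold with a 95% counting interval of 369 to 5229. The malonyltransferase AT5MAT had 2510 and 2 counts, a ratio of 351-fold with a 95% counting interval of 97.2 to 2902. TT7, the flavonoid 3′-hydroxylase, was higher (6.14 ± 0.82), as was PAL1, the entry enzyme of phenylpropanoids, at 742 and 286 TMM-CPM in the T7 plates, against 25.4 and 25.1 TMM-CPM in the T4 plates (log2 change 4.27 ± 0.53, adjusted p = 7.59e-05). TT4, chalcone synthase, had 5959 and 1111 TMM-CPM in the T7 plates, against 584 and 634 TMM-CPM in the T4 plates and did not pass (adjusted p = 0.105, and 0.0419 with DESeq2). The lower member was MYB111, an activator of flavonol synthesis, at 2.86 and 1.93 TMM-CPM in the T7 plates, against 31.7 and 20.5 TMM-CPM in the T4 plates (log2 change -3.44 ± 0.39, adjusted p = 4e-05).

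Levels in unheated leaves belong beside these values. DFR had 6.14 and 23.9 TMM-CPM at T1, 0.812 and 0.701 at T4, 407 and 115 at T6, 670 and 193 at T7 and 208 and 16 at T10. It was lower at T4 than at T1 (log2 change -4.72 ± 1.2, adjusted p = 0.00603), and T7 did not differ from T6 beyond the threshold (log2 change 0.73 ± 0.84, adjusted p = 0.607). Over the list 10 of 24 genes were lower and 1 higher at T4 against T1, where 23.49% of all genes were lower and 18.8% higher. At T7 against T6 none was higher and 1 lower, near the 4.46% and 3.78% of all genes.

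**Figure D3:**
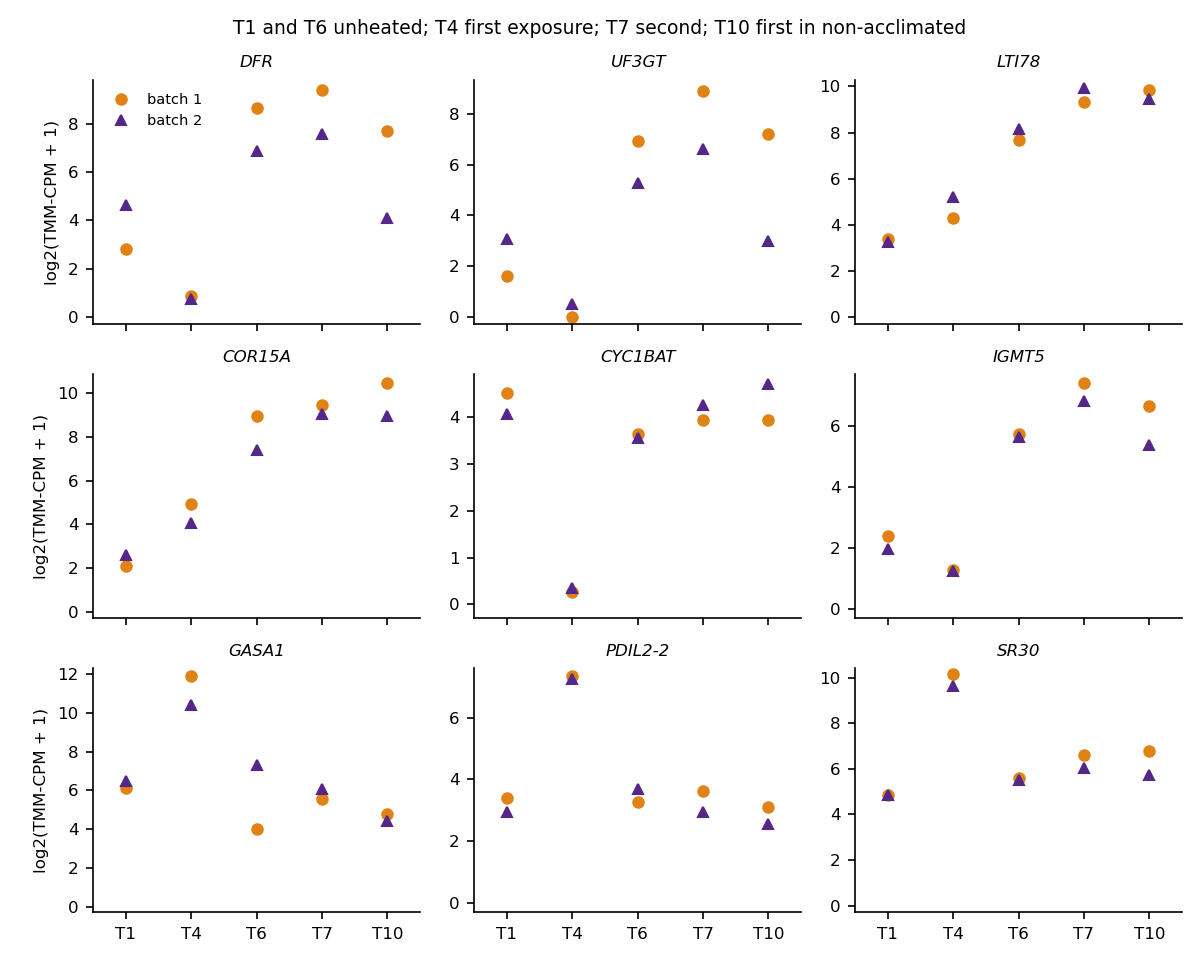
Level as log2(TMM-CPM + 1) of 9 transcripts in each plate of T1, T4, T6, T7 and T10, with batch 1 as circles and batch 2 as triangles. DFR, UF3GT and CYC1BAT have their lowest plates at T4, and GASA1, PDIL2-2 and SR30 have their highest plates there.

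Promoters of a pair of these genes and of the cold-regulated COR15A are shown for the motif ACGTG, the core of the G-box and of abscisic acid response elements. Each line is the window of 250 bases before the start as above, all on the minus strand, with ACGTG on either strand in capitals. The windows lie at chr5:21938397-21938646, chr5:17166033-17166282 and chr2:17712331-17712580.
UF3GT: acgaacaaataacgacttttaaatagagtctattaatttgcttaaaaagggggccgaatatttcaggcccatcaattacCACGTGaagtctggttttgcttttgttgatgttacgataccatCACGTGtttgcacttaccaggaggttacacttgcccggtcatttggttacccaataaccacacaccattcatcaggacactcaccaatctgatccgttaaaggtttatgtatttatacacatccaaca
DFR: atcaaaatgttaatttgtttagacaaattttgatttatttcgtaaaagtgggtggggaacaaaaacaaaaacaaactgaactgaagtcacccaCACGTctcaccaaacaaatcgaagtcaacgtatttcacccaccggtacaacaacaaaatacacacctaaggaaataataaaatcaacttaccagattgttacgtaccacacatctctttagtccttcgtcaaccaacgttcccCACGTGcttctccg
COR15A: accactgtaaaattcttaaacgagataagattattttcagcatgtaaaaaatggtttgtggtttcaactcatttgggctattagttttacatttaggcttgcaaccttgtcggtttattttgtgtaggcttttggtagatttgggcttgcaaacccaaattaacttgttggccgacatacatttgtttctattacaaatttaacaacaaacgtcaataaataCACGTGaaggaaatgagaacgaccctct
The letters occur 4 times in UF3GT, 3 times in DFR and 2 times in COR15A, where a CACGTG counts on both strands. Of all windows 6288 of 27443 held the motif (22.9%). Of 39 abscisic acid and dehydration genes 24 did (61.5%), of the anthocyanin list 8 of 24 (33.3%), and of the 12 genes with the largest increase 3 (25%). The motif was also in 4 of the 12 genes with the largest decrease (33.3%) and in 9 of 33 larger chaperone genes (27.3%).

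Many cold- and dehydration-responsive transcripts were also higher in T7. LTI78 (AT5G52310, chr5:21240717-21243644, plus strand), also called RD29A, had 634 and 981 TMM-CPM in the T7 plates, against 18.47 and 36.2 TMM-CPM in the T4 plates (log2 change 4.88 ± 0.62, adjusted p = 0.000103). COR15A (AT2G42540), which stabilises chloroplast membranes, had 690 and 526 TMM-CPM in the T7 plates, against 29 and 15.6 TMM-CPM in the T4 plates (log2 change 4.86 ± 0.80, adjusted p = 0.000559). P5CS1, the rate-limiting enzyme of proline synthesis, had 278 and 843 TMM-CPM in the T7 plates, against 22.1 and 25.2 TMM-CPM in the T4 plates (log2 change 4.47 ± 0.65, adjusted p = 0.000235). All plates of T7 lay above all of T4 in these genes. COR15B was among the 12 largest increases (6.06 ± 1.17). The dehydrin COR47 did not pass, at 530 and 472 TMM-CPM in the T7 plates, against 830 and 1049 TMM-CPM in the T4 plates (adjusted p = 0.109). Of 37 tested genes of abscisic acid and dehydration 20 were higher and 2 lower (median 1.17, and 0.96 within batch 2), and leaving out the T4 plate of batch 1 or the T7 plate of batch 2 left 10 and 13 higher. LTI78 had 205 and 287 TMM-CPM at T6 and 9.36 and 8.57 at T1. Relative to its own unheated leaves it changed by 1.72 ± 0.54 in T7 (adjusted p = 0.062) and by 1.62 ± 0.55 in T4 (adjusted p = 0.0288).

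Jasmonate genes had 12 of 24 members higher and 1 lower (median 1.23). OPR3, an enzyme of jasmonate synthesis, had 58.2 and 64.6 TMM-CPM in the T7 plates, against 12 and 14.9 TMM-CPM in the T4 plates (log2 change 2.19 ± 0.21, adjusted p = 1.34e-05). The transcription factor MYC2, which directs jasmonate responses, had 32.7 and 63 TMM-CPM in the T7 plates, against 4.46 and 7.43 TMM-CPM in the T4 plates (log2 change 2.98 ± 0.42, adjusted p = 0.0002). AOC2 (2.51 ± 0.48) and LOX2 (1.92 ± 0.44), earlier enzymes of the path, were higher, LOX2 without a call when the T4 plate of batch 2 was left out (1.81). Leaving out single plates gave 5 to 9 higher members, with 5 without the T4 plate of batch 1. Of 34 genes of immediate stress and cold or touch response 8 were higher and none lower (median 1.57, or 1.48 with members at 0 at their bound, and 1.17 within batch 2), and 2 to 4 were higher with any plate left out. CBF2, the cold regulator, was higher, at 7.58 and 8.27 TMM-CPM in the T7 plates, against 2.44 and 0.701 TMM-CPM in the T4 plates (log2 change 2.49 ± 0.60, adjusted p = 0.00695), but not without the T4 plate of batch 2 (1.95). Salicylic acid and pattern-triggered defence had 5 higher (22.7%) and 2 lower (9.09%) of 22, near the shares of all genes, with 11 higher and none lower by library size and 2 to 4 higher with any 1 plate left out. Its regulator EDS1 was higher (1.89 ± 0.39).

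Cell cycle and DNA replication transcripts, which mark dividing cells, were higher in T7 for 25 of 35 members and lower for none. CYC1BAT (AT5G06150, chr5:1859279-1861703, minus strand), a B-type cyclin of mitosis, had 708 counts in T7 and 3 in T4, a ratio of 66.1-fold with a 95% counting interval of 22.5 to 321. CYCB1;3, another mitotic cyclin, had 211 and 1 counts, a ratio of 59.1-fold with a 95% counting interval of 10.5 to 2344. RNR1, the large subunit of ribonucleotide reductase, had 82.9 and 120 TMM-CPM in the T7 plates, against 12.4 and 21.2 TMM-CPM in the T4 plates (log2 change 2.60 ± 0.30, adjusted p = 4.82e-05). Its small subunit TSO2 was higher (2.44 ± 0.59), with calls lost without the T7 plate of batch 1 (2.02) or the T4 plate of batch 1 (2.21). The list's median was 1.53, with 1.67 and 1.60 by batch, and 19 to 23 members were higher with any 1 plate left out. RNR1 had 49 and 53.6 TMM-CPM at T6 and 66.2 and 48 at T1. Over the list 24 of 35 members were lower and 1 higher at T4 against T1, where 23.49% of all genes were lower. At T7 against T6, 2 were higher and 1 lower, near the 4.46% and 3.78% of all genes. HIS1-3, a linker histone known from drought, was among the largest increases, at 16.1 and 30.6 TMM-CPM in the T7 plates, against 0 and 0.561 TMM-CPM in the T4 plates (log2 change 6.14 ± 0.75, adjusted p = 7.16e-05).

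Metal transport showed opposite moves within related genes. IRT1, the main iron importer of roots, had 610 counts in T7 and 2 in T4, a ratio of 85.4-fold with a 95% counting interval of 23.53 to 707. NAS4, which makes the metal chelator nicotianamine, had 410 and 105 TMM-CPM in the T7 plates, against 14 and 5.05 TMM-CPM in the T4 plates (log2 change 4.63 ± 0.62, adjusted p = 0.000134). The zinc transporter ZIP4 (AT1G10970) was lower, at 5.71 and 6.76 TMM-CPM in the T7 plates, against 174 and 126 TMM-CPM in the T4 plates (log2 change -4.61 ± 0.41, adjusted p = 1.18e-05). Its relative IRT3 was lower too, at 2.08 and 5.16 TMM-CPM in the T7 plates, against 55.4 and 96.5 TMM-CPM in the T4 plates (log2 change -4.50 ± 0.50, adjusted p = 3.48e-05). The groups did not overlap in either gene. FER4, an iron storage ferritin, was lower (-3.90 ± 0.89), with the call lost without the T4 plate of batch 1 (-2.70) and without a batch term (-3.31). Of 19 tested iron uptake and ferritin genes 6 were higher and 1 lower (median 1.38, with 2.54 and 0.88 by batch), and 2 to 4 were higher with any 1 plate left out.

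T7 was taken at hour 9 and T4 at hour 7.5, and the part of the hour in clock and growth genes was not tested. Of 22 clock genes 5 were higher and 4 lower (median -0.71), with 7 higher and none lower by library size and 1 or 2 lower with any 1 plate left out. The RNA-binding proteins GRP7 (2.77 ± 0.48) and CCR1 (AT4G39260, 2.92 ± 0.40), whose levels cycle over the day, were higher, with CCR1 at 482 and 421 TMM-CPM in the T7 plates, against 50.7 and 72.1 TMM-CPM in the T4 plates. The morning factor LCL1 was lower (-1.83 ± 0.34), without a call by library size (-0.65). Growth genes of auxin and thermomorphogenesis had 11 of 35 members lower and 3 higher (median -1.59, and -0.71 within batch 2), against 5 lower and 11 higher by library size and 7 to 10 lower with any 1 plate left out. SAUR19, an auxin-induced growth protein with near-identical neighbours, had 0.0519 and 0.546 TMM-CPM in the T7 plates, against 8.73 and 13.6 TMM-CPM in the T4 plates (log2 change -5.31 ± 0.98, adjusted p = 0.00127). GASA1 (AT1G75750, chr1:28441501-28442435, minus strand), a gibberellin-regulated peptide, was also lower, at 46.8 and 65.6 TMM-CPM in the T7 plates, against 3891 and 1357 TMM-CPM in the T4 plates (log2 change -5.66 ± 1.05, adjusted p = 0.00132). RD28, a plasma membrane aquaporin, had 124 and 56.4 TMM-CPM in the T7 plates, against 3115 and 1715 TMM-CPM in the T4 plates (log2 change -4.75 ± 0.90, adjusted p = 0.00155). HA9, a plasma membrane proton pump, was lower (-5.08 ± 0.90), as were DAR6 (-5.23 ± 0.74) and HEC1 (-4.83 ± 1.2), a helix-loop-helix factor whose call was lost without the T7 plate of batch 2 (-4.21) or the T4 plate of batch 1 (-2.09).

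The remaining genes among the 12 largest increases were IGMT5, CHX16 and VAMP713. IGMT5, which methylates indole glucosinolates, had 169 and 113 TMM-CPM in the T7 plates, against 1.42 and 1.4 TMM-CPM in the T4 plates (log2 change 6.58 ± 0.48, adjusted p = 4.58e-06). The cation/proton exchanger CHX16 had 802 counts in T7 and 3 in T4, a ratio of 74.8-fold with a 95% counting interval of 25.5 to 364. VAMP713, a membrane fusion protein of the vacuole, was higher (6.02 ± 0.57). Sugar-starvation genes had 5 higher and 1 lower of 26 (12 higher and none lower by library size, and 3 higher without the T7 plate of batch 2). This list also holds genes of sugar transport and starch synthesis, and its share of higher members (19.2%) was near the 16.9% of all genes. In it the sugar carrier STP4 (2.73 ± 0.40) and APL3, of starch synthesis (3.14 ± 0.48), were higher. TPS10 (1.69 ± 0.37), a trehalose phosphate synthase, was higher too, with no call without the T7 plate of batch 2 (1.11). Senescence genes had 2 higher and 3 lower of 17 (10 higher and none lower by library size, and none lower without either plate of batch 1), with SAG101, a partner of EDS1, higher (3.50 ± 0.54). Of 87 chloroplast-encoded loci 2 were higher and 2 lower, and of 63 mitochondrion-encoded loci 2 were lower and none higher, which turned to 10 and 3 higher and none lower by library size.

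**Figure D4:**
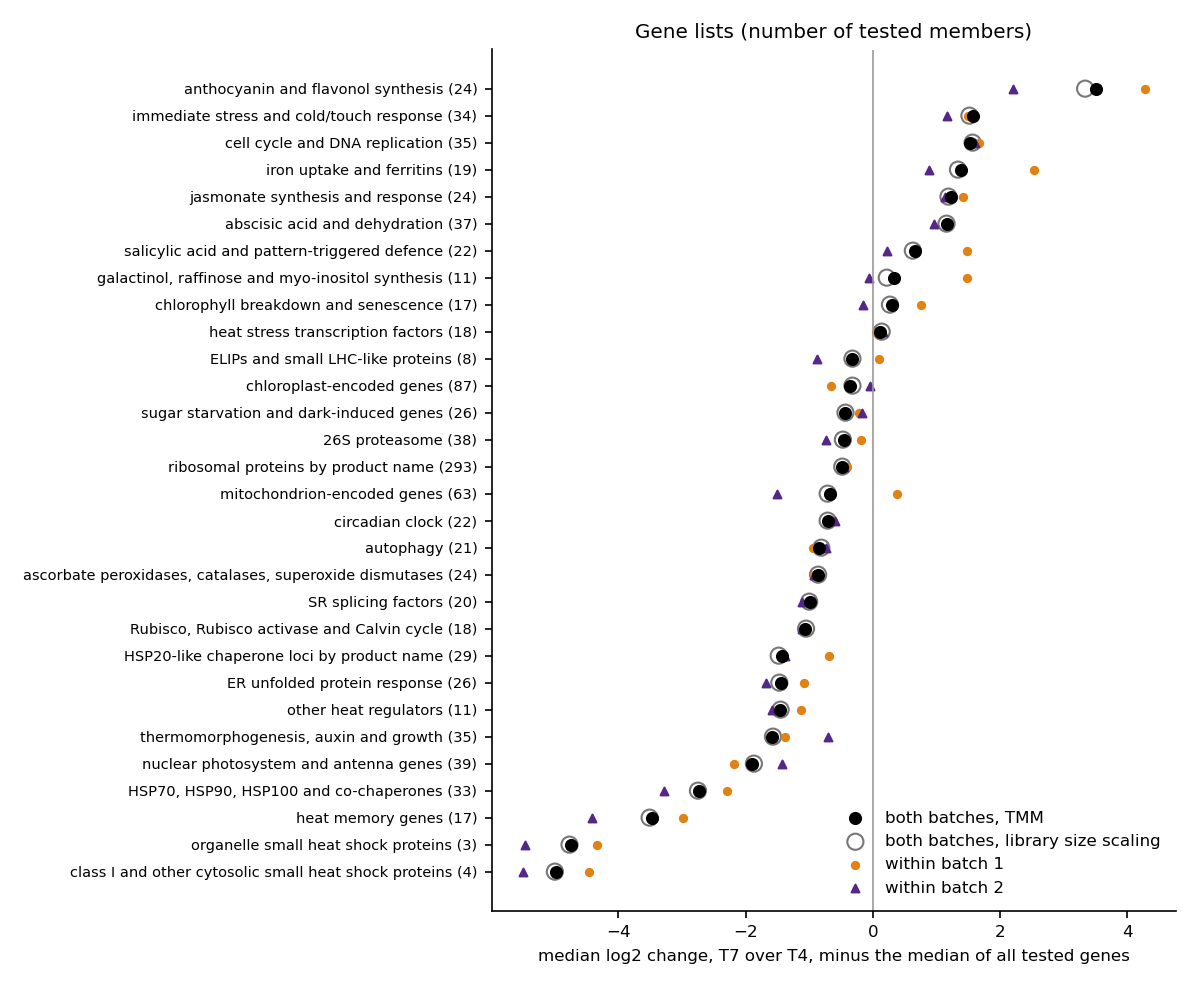
Median log2 change of T7 over T4 for each gene list, minus the median of all tested genes, with the number of tested members in parentheses. Filled points use both batches with TMM, open circles library size scaling, and small symbols each batch alone. Anthocyanin genes lie highest at 3.51 and cytosolic small heat shock proteins lowest at -4.98.

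Each exposure was also compared with unheated leaves taken before it, and the difference between these responses was tested. T7 against T6 gave 936 higher (4.46%) and 793 lower loci (3.78%), and T4 against T1 gave 3939 higher (18.8%) and 4928 lower loci (23.49%). By library size alone these counts were 326 and 4046 for T7 against T6, and 709 and 16027 for T4 against T1. No plate is shared between the responses, but T1 was taken at dawn and T6 at hour 7.5. The signed difference, second response minus first, was positive for 1398 loci (6.66%) and negative for 1088 (5.19%). Both counts were smaller when 1 of the 8 plates was left out. A positive value also arises where the first exposure lowered a transcript and the second did not. HSP21 changed by 3.36 ± 1.11 in T7 against T6 (adjusted p = 0.0708) and by 16.34 ± 1.81 in T4 against T1 (adjusted p = 1.67e-05), a difference of -12.98 ± 1.86 (adjusted p = 0.000665). It had 7.34 and 49.7 TMM-CPM at T6 and 0.319 and 0.0435 at T1, so the size of its change from T1 rests on few reads there. The starting levels therefore differed between the unheated groups, and the T6 plate of batch 2 stood above that of batch 1. The 2 tubes of that T6 plate also agreed least of all plates (Pearson's r of 0.908 across genes). HSP101 changed by 6.31 ± 1.45 in T7 against T6 (adjusted p = 0.0223) and by 11.55 ± 1.76 in T4 against T1 (adjusted p = 0.000188), and the difference of -5.24 ± 1.75 missed the threshold (adjusted p = 0.0654).

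By list, the larger chaperones were higher in 21 of 33 members at T7 against T6 and in 32 of 33 at T4 against T1, and 19 responded less in the second exposure (17 by library size, with 30 higher and 2 lower at T4 against T1). ER folding genes were higher in 1 of 26 and lower in 2 at T7 against T6, beside 4.46% and 3.78% of all genes. They were higher in 18 and lower in 1 at T4 against T1, and 16 responded less. By library size these counts depended on the scaling, with 1 higher and 8 lower at T7 against T6, 9 higher and 8 lower at T4 against T1, and 11 that responded less and 2 more. PDIL2-3 had 32.4 and 29.4 TMM-CPM at T7 and 37.9 and 53.2 at T6, and 254 and 270 at T4 and 36.3 and 34.1 at T1. The response difference was positive for 22 of 35 cell cycle genes and negative for none. Of these 35 genes 24 were lower at T4 against T1, and 2 were higher at T7 against T6. For abscisic acid and dehydration genes the response difference was positive for 1 (2.7%) and negative for 4 (10.8%) of 37. For jasmonate genes it was positive for 1 (4.17%) and negative for 1 (4.17%) of 24. Of all genes it was positive for 6.66% and negative for 5.19%, so the jasmonate counts were near those shares. By library size these counts turned to 11 and 2 and to 6 and none. All 4 cytosolic and all 3 organelle small heat shock proteins of the lists responded less. In the wider HSP20-like set 9 of 29 responded less and 20 were not called, and by library size 9 responded less and 5 more. The difference was positive for HSFA7A (3.67 ± 0.96, adjusted p = 0.0235).

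**Figure D5:**
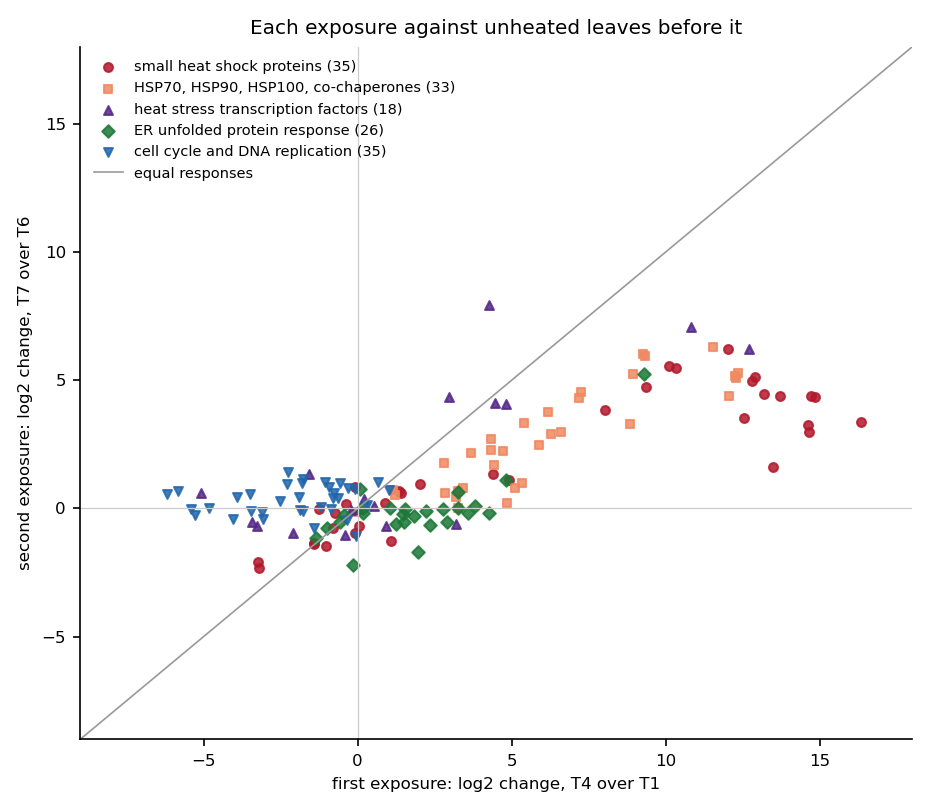
Log2 change of the second exposure (T7 over T6, vertical axis) against that of the first (T4 over T1, horizontal axis) for members of 5 groups, with a line of equal responses. HSP21 lies at 16.34 on the horizontal and 3.36 on the vertical axis, and 16 of 26 ER folding genes responded less to the second.

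At the same hour, age and heating rate, T7 differed from T10, the non-acclimated leaves, in 11 loci that were higher (0.0524%) and 1 that was lower (0.00477%) in edgeR, with 1635 at an unadjusted p under 0.05. HSP21 had 671 and 181 TMM-CPM in T7 and 171 and 38.2 in T10 (adjusted p = 0.665), and APX2 had 912 and 182 in T7 and 19.9 and 1.02 in T10 (adjusted p = 0.218). PDIL2-3 had 32.4 and 29.4 in T7 and 22.1 and 19.9 in T10. No member of the small heat shock protein lists or of the 33 larger chaperones was called between T7 and T10. With 2 plates a side this does not show equal levels. The 3 organelle members summed to 5360 and 1380 TMM-CPM in T7 and 1920 and 564 in T10, with a median of 1.93 relative to all genes. The median was 0.50 for the 4 cytosolic members and -0.08 for the larger chaperones. For this comparison DESeq2 was not run and no plate was left out in turn.

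Marker lists of tissues were compared for the same plates. The summed level of 5 mesophyll markers was 41900 and 33400 TMM-CPM in T7, against 152000 and 104000 in T4, with 2 of 5 lower, whereas in the authors' deposited table none was lower and 1 was higher, with a median of 0.41 relative to all genes against -1.94 by TMM. Of 9 guard cell and stomatal lineage markers 5 were lower and 1 higher (1 lower and 3 higher by library size), with sums of 41.5 and 46.7 in T7 and 93.3 and 97.3 in T4. The stomatal factor SPCH was lower (-2.03 ± 0.35, with no call by library size at -0.86), as was its inhibitory peptide EPF2 (-2.44 ± 0.50). Of 10 root markers 3 were higher and 1 lower, with sums of 552 and 659 in T7 and 491 and 521 in T4. Trichome and epidermis markers had 1 of 7 lower, with sums of 488 and 571 in T7 and 509 and 769 in T4. Vascular markers had 1 higher and 1 lower of 7, with sums of 383 and 216 in T7 and 267 and 172 in T4. Shoot apex markers, 3 tested with none passing, summed to 4.83 and 10.7 in T7 and 5.88 and 2.53 in T4, and CLV3 and WUS had no counts in T4. Of the seed storage markers 2 were tested and 1 was lower, CRA1, at 0.26 and 0.21 TMM-CPM in T7 and 1.83 and 0.982 in T4. CRU3 and OLEO2 were at 0 in all 4 plates, and OLEO1 and SESA1 had at most 4 counts in a plate. The part of these markers in the gene results was not tested.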

How the data were processed

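Polyadenylated RNA of leaves had been sequenced from a stranded library kit, per the labels' protocols. The submitters' processing notes name HTSeq, SAMtools, Bowtie2 2.1.0.0 with TopHat2 2.0.14, the demultiplexer bcl2fastq 1.8.4 and the TAIR10 build. Whether reads were counted by strand is not stated in those notes. The deposited counts are whole reads per locus, made by the authors without normalization. Rows that name no gene, 14.1% to 26.4% of the reads in T7 and T4 tubes, were left out. The authors also deposited a table of normalized log2 values for 18864 genes, with no scaling named in the labels, and 1 of its columns matched no sample and was not used.

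The 43 libraries were summed to 22 plates. Of 33602 loci, 20980 passed edgeR's filterByExpr with a minimum count of 10. edgeR's quasi-likelihood test with TMM scaling and Benjamini-Hochberg adjustment was fitted to all plates with time point and batch as terms (residual degrees of freedom 10, common biological coefficient of variation 0.308), and a gene was called at an adjusted p under 0.05. R 4.3.3, edgeR 4.0.16, limma 3.58.1 and DESeq2 1.42.0 were used. Standard errors of log2 changes come from this fit. Nothing in the labels makes the plates of a time point separate experiments beyond their batches, so the p-values measure the spread between these plates. Plates of the same batch deviated together, with a correlation of 0.349 for T7 and T4, a median of 0.302 and a minimum of 0.0993 over all pairs of time points, and batch is a term of the model. On simulated counts for T7 against T4 (20241 genes) the fit called 74 of 100 genes changed 4-fold and 100 of 100 changed 16-fold, with 8 false calls. The simulation gave all genes the same dispersion, no batch effect and balanced changes in few genes. It therefore checks the code and does not give the error rate in these data.

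Gene names, lengths and promoters were taken from RefSeq's TAIR10.1, which held 32835 of the loci. The comparison and all gene lists were chosen with earlier results of these data known, and the list of ribosomal proteins and that of HSP20-like loci by product name were drawn up last. Of 13 written symbols of cytosolic small heat shock proteins 4 were resolved in the annotation, and of 6 organelle ones 3. The genes named were the 12 largest changes in each direction with a mean of 10 TMM-CPM in T7 or T4, a symbol and the same sign in both batches, the 6 largest response differences in each direction, and from each list up to 4 members with the smallest p and up to 2 with the highest level, plus 6 known heat markers. Where T4 held 1 to 3 counts, the ratio of counts is given with an exact 95% interval, which covers counting error only. Alternatives changed the scaling, the tool, the filter, the batch term, the plates in the fit, the tubes and the values used, and left out each plate in turn. The list medians from the authors' deposited table were added after seeing the data. Reads with several alignments stand in a row that names no gene and were left out, so near-identical genes may be undercounted. They made 4.55% to 5.7% of the reads of T7 and T4 tubes in batch 1 and 19.7% to 23.7% in batch 2, while reads not aligned made 8% to 15.2% in batch 1 and 0.21% to 0.239% in batch 2.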

Additional observations from a re-analysis of the deposited data

Results flagged for a closer look

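The first and second exposure differed in their responses, by a test of the difference itself, (T7 against T6) minus (T4 against T1), in edgeR's quasi-likelihood fit. The second response was the higher one for 1398 loci and the lower one for 1088. T1 was taken at dawn and T6 at hour 7.5, and the part of the hour in these differences was not tested. Among well-expressed named genes the most positive differences on the log2 scale were 8.64 for BT5, a scaffold protein of the BTB family, 7.22 for the defence regulator WRKY40, 6.77 for the cyclin CYC1BAT, 6.64 for the clock-related RVE2, 6.59 for the iron importer IRT1 and 5.92 for ENODL13. Several of these genes had 1 to 3 counts in T4, so that their fitted values depend on the prior count. RVE2 was not called in T7 against T4 itself by edgeR, and was with DESeq2 (1.92, adjusted p = 0.0318). The most negative differences were -12.98 for HSP21, -11.88 for HSP18.2, -11.68 for HSP17.4, -11.12 for the ascorbate peroxidase APX2, -10.51 for HSP23.6-MITO and -10.32 for ATHSP22.0. Low levels at T1 limit these values too. The 3 organelle small heat shock proteins together had 3.54 and 0.435 TMM-CPM there, and the 4 cytosolic ones 11.1 and 4.18. The sizes of their differences are therefore uncertain.

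With each of the 8 plates left out in turn, 10 of these 12 genes passed every time. WRKY40 (5.16 to 8.08) lost its call in 6 of the 8 cases and HSP23.6-MITO (-12.85 to -5.73) in 4, among them the cases without the T6 plate of batch 2.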

How the results depend on the processing

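Counts of genes depended most on the scaling. By library size alone, 11859 loci were higher and 486 lower in T7 against T4, and 7849 and 373 in the response difference. In the authors' deposited normalized table (limma) 2341 were higher in T7, and 731 in the response difference. Of 111 described genes found there 17 lost their call, among them HSP17.4, HSP17.6II, ATHSP22.0, HSP70, HSP90.1, RCA, RBCS3B and PSBQA. Of the 33 larger chaperones 13 were lower there, against 22 by TMM. By library size 13 of 112 described genes lost their call, and DESeq2 lost 1 and added 11. Leaving out 1 plate gave 1982 to 2543 higher and 1496 to 1841 lower loci, and 593 to 1042 and 560 to 1025 for the response difference. Fitting only the compared time points gave 621 and 663 for the response difference, the first tube of each plate gave 689 lower and DESeq2 1692 lower.

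The batch is the replicate block of the model. With no replicate block, 2766 loci were higher and 1992 lower in T7 against T4, and the response difference had 862 and 706. Of 112 genes described, 7 lost their call without the block, and 13 to 18 lost it when 1 plate was left out.

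Medians of lists, relative to all genes, kept their sign between both batches and library size scaling except for galactinol (1.48 within batch 1 and -0.06 within batch 2), the senescence list, the light-induced proteins and the mitochondrion-encoded loci. Within batch 1 they were -1.13 for other heat regulators, -0.92 for reactive oxygen, -0.22 for sugar starvation, -0.62 for the clock, 1.67 for the cell cycle, -0.41 for ribosomal proteins and -0.69 for HSP20-like loci. Within batch 2 they were 1.17 for immediate stress, -0.93 for reactive oxygen, 0.96 for abscisic acid, -0.17 for sugar starvation, -0.59 for the clock, 1.60 for the cell cycle, -0.71 for growth and -1.12 for SR proteins. In the authors' deposited table they were -2.75 for cytosolic and -2.34 for organelle small heat shock proteins, -1.31 for larger chaperones, -0.92 for other regulators, -1.78 for memory, 1.00 for immediate stress, -0.30 for reactive oxygen, -0.91 for the ER, 0.12 for photosystems, 0.36 for Rubisco, -0.25 for sugar starvation, -0.26 for the clock, 1.36 for the cell cycle, 1.62 for jasmonate, 0.03 for ribosomal proteins, -0.01 for the proteasome, -0.38 for autophagy, -0.36 for SR proteins and -0.90 for HSP20-like loci.

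Genes that turned direction had not passed. In the authors' deposited table the values were 0.05 for HSFA2, 0.69 for CAB1 and 1.74 for RBCS1A, which passed there. By library size they were 0.15 for RBCS1A and 0.27 for COR47. DREB2A turned to -0.06 in the fit of the compared time points, to -0.79 without the T7 plate of batch 1 and to -0.12 without the T4 plate of batch 2, over a range of -0.79 to 0.63 with single plates left out. MIPS1 was -0.18 and -0.23 without the same plates and -0.05 with DESeq2, over a range of -0.23 to 0.33 with single plates left out. The cause was not tested. Genes with few counts are limited by depth.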

Other observations

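Per kilobase of exon the most abundant tested protein-coding transcripts of T7 leaves, ranked here by their level, coded for the Rubisco small subunit RBCS1A (15300 and 13500 TMM-CPM per kilobase in the T7 plates, against 33600 and 25600 in the T4 plates), CAB1 and LHB1B2 of the antenna, and THI1 of thiamine synthesis. THI1 stood at 11300 and 5280 in the T7 plates, against 3850 and 3500 in the T4 plates. In T4 leaves the list was led by HSP17.4, at 2170 and 704 TMM-CPM per kilobase in the T7 plates, against 66300 and 51700 in the T4 plates, and AT1G53540 and AT1G07400 were also among the first 5.

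Organelle-encoded transcripts were counted in both exposures. At T7 against T6, 38 of 87 chloroplast-encoded loci were higher and none lower, and 29 of 63 mitochondrion-encoded loci were higher and none lower. Of all genes 4.46% were higher and 3.78% lower in that comparison. At T4 against T1 the counts were 34 higher and 1 lower of 87, and 48 higher and none lower of 63. There 18.8% of all genes were higher and 23.49% lower. The libraries were made from polyadenylated RNA, which these transcripts enter only in part, and the scaling mattered. By library size 29 chloroplast-encoded and 31 mitochondrion-encoded loci were higher and none lower at T7 against T6. At T4 against T1, 10 chloroplast-encoded loci were higher and 12 lower, and 44 mitochondrion-encoded loci were higher and none lower. Over all 20980 loci this scaling gave 326 higher and 4046 lower at T7 against T6, and 709 and 16027 at T4 against T1.

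Few loci were called between T7 and T10, the acclimated and non-acclimated plants after the same sudden heating. The following were picked after their values were seen. FRO6, a ferric reductase, was the lower one, at 15.6 and 16.4 TMM-CPM in T7, against 108 and 91.2 in T10. AT1G11265 had 0.52 and 211 TMM-CPM in the T7 plates, so that the plates of T7 themselves lay far apart.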
